A study of Mus musculus with 12 samples.

Results

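The SOCS family comprises 8 genes, Cish and Socs1 to Socs7, which were found by symbol among the 35855 genes that have a transcript in the processed files. Each was followed by RNA-seq in 12 libraries made from sorted CD8 T cells, in 4 groups of 3 libraries. The groups were WT and TCF-1 cKO cells of C57BL/6 background from spleen, taken before transplant and at day 7 after an MHC-mismatched allogeneic transplant. Genotype is given by the labels as wild type or TCF-7 cKO, and Tcf7 is the gene for TCF-1. In the TCF-1 cKO donors a floxed Tcf7 was removed by Cre under the Cd4 promoter, so that deletion took place at the double-positive thymocyte stage in all T cells, CD4 T cells included. Donor cells (1000000 CD3 T cells) were given to lethally irradiated BALB/c recipients with WT bone marrow, and donor CD8 T cells were sorted back from the spleen. The recipients were thus WT in both post-transplant groups. A Cre-only control was not analysed here, and the labels do not say whether a library came from 1 mouse or from a pool. All p-values therefore measure the spread between libraries, which may be technical.

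SOCS proteins close a negative feedback loop on cytokine signaling. A cytokine receptor activates JAK kinases, these phosphorylate STAT factors, and the STAT factors switch on genes that include SOCS genes themselves. Every family member has an SH2 domain, which binds phosphotyrosine, and a SOCS box, which recruits an elongin and cullin ubiquitin ligase. CIS (from Cish) and SOCS2 are best known as inhibitors of STAT5 signaling and of growth hormone receptor signaling, and CIS also restrains T cell receptor signaling. SOCS1 and SOCS3 carry in addition a kinase inhibitory region that blocks JAK activity. SOCS1 is a main brake on interferon-gamma and common gamma chain cytokines, and SOCS3 on cytokines that signal through gp130. SOCS4 and SOCS5 are linked mainly to growth factor receptors, and SOCS6 and SOCS7 to receptor tyrosine kinase and insulin signaling.

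Cish, Socs1 and Socs3 are the members on which the results below turn, so the sequence at their start sites is shown. STAT factors read the palindromic letters TTCNNNGAA, which were searched in promoter windows of 300 bases (250 before and 50 after the RefSeq start, GRCm38.p6); the motif reads the same on both strands, and no other motif was searched. Of the 8 members, 4 matched a window by symbol. Matches are in capitals.
Cish, chr9:107296654-107296683, plus strand, 30 bases around the start: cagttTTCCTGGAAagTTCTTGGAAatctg
Socs3, chr11:117969367-117969616, minus strand, 250 bases before the start: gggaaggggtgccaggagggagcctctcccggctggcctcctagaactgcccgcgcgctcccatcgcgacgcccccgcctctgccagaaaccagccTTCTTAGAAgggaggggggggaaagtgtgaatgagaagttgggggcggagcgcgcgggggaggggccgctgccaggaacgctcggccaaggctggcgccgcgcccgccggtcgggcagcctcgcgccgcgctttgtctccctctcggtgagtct
Socs1, chr16:10785537-10785786, minus strand, 250 bases before the start: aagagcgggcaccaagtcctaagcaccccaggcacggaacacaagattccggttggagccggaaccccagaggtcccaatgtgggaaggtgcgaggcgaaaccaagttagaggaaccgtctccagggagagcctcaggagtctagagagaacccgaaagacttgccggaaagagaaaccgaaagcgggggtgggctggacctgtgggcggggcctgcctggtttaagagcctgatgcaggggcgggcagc

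Cish held 2 matches, at bases 251 and 262 of its window. Socs3 held 1, at base 97. The windows of Socs1 and Socs4 held none. Over all 32851 promoter windows, 8.30% held at least 1 match and 0.457% held 2 or more. These are matches of letters, not measured binding sites.

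The libraries held between 4520270 and 32657005 estimated counts. Depth was lowest in the TCF-1 cKO pre-transplant libraries, at 4520270 to 9577076. Tcf7 lay at 76.1 to 166 normalized CPM (counts per 1000000 counts of the TMM-scaled library size) in WT and 26.3 to 62.9 in TCF-1 cKO pre-transplant cells. Post-transplant, Tcf7 was 26.9, 26.5 and 10.7 in the libraries labelled WT and 13.7 to 14.6 in TCF-1 cKO. The library labelled WT post-transplant replicate 3 thus goes against its label by this gene. In a fit that includes this library, Tcf7 did not pass between genotypes post-transplant (log2 fold change −0.91, edgeR adjusted p = 0.308). Pre-transplant Tcf7 did not pass either (−1.35, edgeR adjusted p = 0.223), so this gene cannot decide whether the label is right. Which exons were deleted is not given in the sources used here, and reads outside them count for Tcf7. The summed level of 6 B cell markers (all 6 detected) was 9068 to 16563 CPM of library totals in the pre-transplant libraries and 228 to 467 in the post-transplant ones. CD8 markers (Cd8a and Cd8b1) summed to 526 to 558 CPM in WT pre-transplant, 286 to 303 in TCF-1 cKO pre-transplant and 1003 to 1530 post-transplant. In every pre-transplant library the B cell markers were thus well above the CD8 markers, whatever the sort label says. TCF-1 cKO post-transplant replicate 2 carries, in 1 of its labels, the cell type CD4, yet it had 2.04 normalized CPM of Cd4 and 622 of Cd8a. In bulk libraries, fewer cells of a type and less RNA per cell cannot be told apart.

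Between genes, levels were compared per length as TPM (length-scaled transcript abundance, set to the same total in every library), summed over a gene's transcripts. In WT pre-transplant cells Socs3 was the highest member, at 17.6, 40.0 and 26.8 TPM, and its libraries did not overlap those of the next member, Socs2 (13.0 ± 2.44 TPM, SD, n = 3). Socs1 (11.2 ± 3.04) and Socs6 (9.58 ± 2.35) followed, and from Socs2 down each member overlapped its neighbor in the order. Cish, at 5.40 ± 2.51 TPM, was lower still, below Socs5. In TCF-1 cKO pre-transplant cells Socs2 stood first, at 28.4, 36.1 and 31.3 TPM, without overlap with Socs6 (12.8 ± 5.62), and Socs3 followed these at 6.85 ± 1.41. Over protein-coding transcripts alone Socs2 was not first in TCF-1 cKO: Socs3 (6.85 TPM), Socs6 (6.72) and Socs5 (5.46) were above it (5.33).

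Post-transplant, the 3 highest members in WT were Socs3 (13.6 ± 8.38 TPM), Cish (12.9 ± 8.10) and Socs1 (10.3 ± 7.46), which overlapped one another. In TCF-1 cKO post-transplant cells no member exceeded 3.59 TPM in any library, and Socs6 (2.89 ± 0.198), Socs3 (2.36 ± 1.12) and Socs2 (1.74 ± 0.175) came first. Socs5, one of the members linked to growth factor receptors, was the lowest in both post-transplant groups, at 0.307 ± 0.431 TPM in WT and 0.162 ± 0.190 in TCF-1 cKO. The 8 members together summed to 70.6 to 87.1 TPM in WT and 62.5 to 77.7 TPM in TCF-1 cKO pre-transplant. Their sum was 49.2, 64.9 and 21.3 TPM in WT post-transplant replicates 1 to 3 and 9.33 to 11.3 TPM in TCF-1 cKO post-transplant. Replicate 3 was the lowest of the WT libraries.

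**Figure D1:**
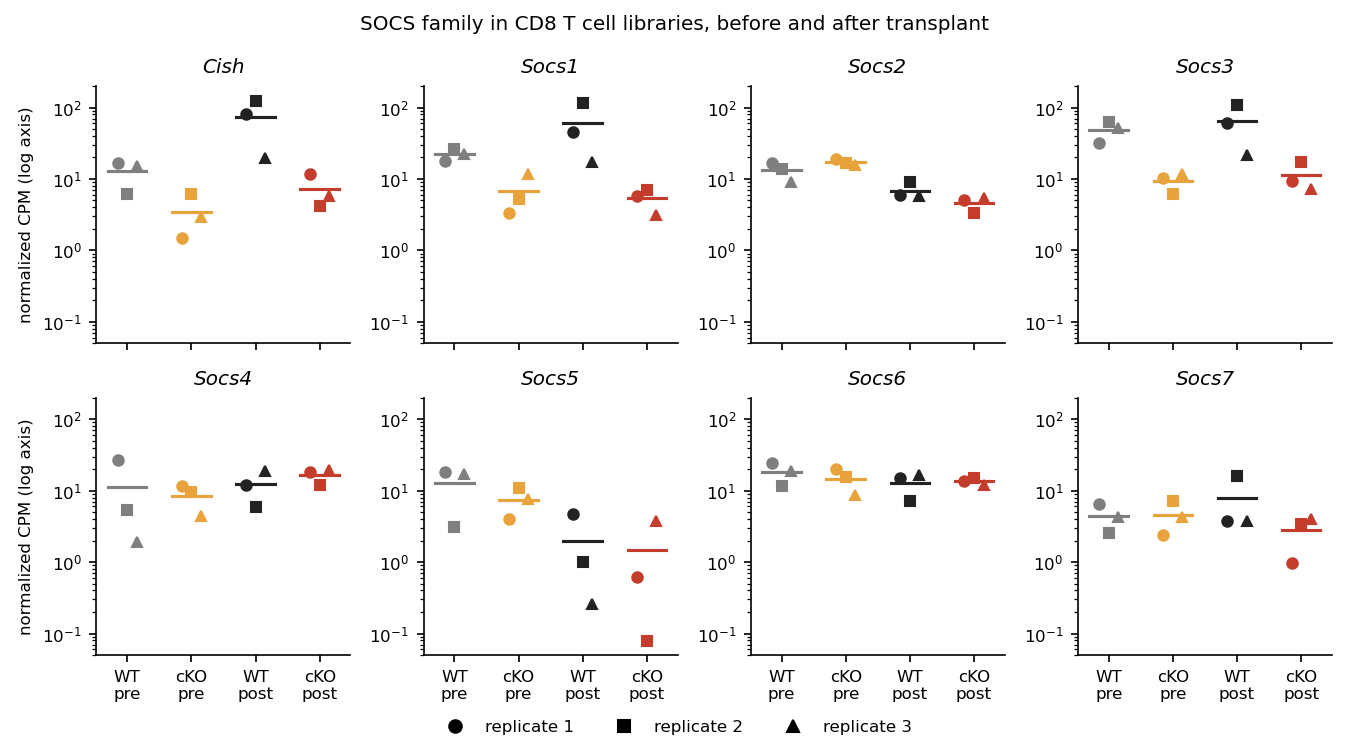
Normalized CPM (log axis) of each SOCS gene in each of the 12 libraries. Points are libraries, marked by replicate, and bars are group means. Post-transplant, all 3 TCF-1 cKO libraries lay below all 3 WT libraries for Cish, Socs1 and Socs3, and the WT libraries spread from 19.8 to 121 for Cish.

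The question of the post-transplant comparison is which genes differ between alloactivated TCF-1 cKO and WT CD8 T cells. Cish (an inhibitor of STAT5 signaling), Socs1 (of interferon-gamma signaling) and Socs3 (of gp130 signaling) were lower in TCF-1 cKO. Cish was at 81.4, 121 and 19.8 normalized CPM in the WT libraries and at 11.6, 4.16 and 5.82 in TCF-1 cKO. No library of one genotype reached into the range of the other, and the library labelled WT post-transplant replicate 3 was the closest to TCF-1 cKO. The log2 fold change of Cish was −3.72 (SE 0.80, edgeR adjusted p = 0.0448).

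Socs1 was at 46.1, 116 and 17.0 normalized CPM in WT and at 5.87, 7.06 and 3.16 in TCF-1 cKO. Its groups did not overlap either, and its log2 fold change was −3.77 (SE 0.82, edgeR adjusted p = 0.0448). Socs3 was at 60.7, 109.5 and 21.9 in WT and at 9.37, 17.1 and 7.24 in TCF-1 cKO. The library labelled WT replicate 3 again lay closest to the other group, and the log2 fold change of Socs3 was −2.78 (SE 0.74, edgeR adjusted p = 0.0520). These 3 genes were listed by the study from the same samples, so their direction here is not independent evidence.

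In the other members the post-transplant difference did not pass. Socs2 was at 5.97, 8.97 and 5.73 normalized CPM in WT and at 5.08, 3.37 and 5.38 in TCF-1 cKO, without overlap, and its log2 fold change was −0.86 (SE 0.52, edgeR adjusted p = 0.311). Socs7 was at 3.71, 15.8 and 3.76 in WT and at 0.963, 3.37 and 3.96 in TCF-1 cKO. Its groups overlapped and its log2 fold change was −1.72 (SE 0.84, edgeR adjusted p = 0.219). Socs4 and Socs6 had values of 0.21 and −0.18, and their groups overlapped. Socs5 did not pass the filter on low counts and holds as few as 1 estimated count in a TCF-1 cKO library, which is below the floor of 3 counts.

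Thus 3 of the 7 members tested passed an adjusted p of 0.1 (edgeR quasi-likelihood test, Benjamini-Hochberg), all 3 lower, where 17.9% of the 16026 genes tested passed and 15.4% passed as lower. Without overlap between the groups in normalized CPM were 4 of the 7, all lower, where 40.8% of genes tested did not overlap and 17.3% did not overlap and were lower. With CPM of library totals it was again 4, where 6859 of the 16026 genes did not overlap. With TPM it was 3, where 6181 genes did not, and Socs2 then overlapped. The median log2 fold change was −1.72 over the 7 members and 0.15 over all genes. By the two-sided exact permutation test, Cish, Socs1, Socs2 and Socs3 each gave p = 0.1, the smallest that 3 libraries against 3 allow. With any 1 library left out other than the one labelled WT post-transplant replicate 3, 0 members passed by edgeR. Of all genes tested, 0 to 2 passed in those fits. In each of them 3 members had an unadjusted p under 0.05, as did 3111 to 4163 of the 16667 to 17772 genes tested. Without the library labelled WT post-transplant replicate 3, Cish (−4.24), Socs1 (−4.27) and Socs3 (−3.27) passed, where 29.3% of genes passed. At an adjusted p of 0.05 Cish and Socs1 passed, where 8.71% of genes did. With counts scaled from TPM and an adjusted p of 0.1, Socs7 passed as well, where 16.4% did. Its TPM was highest in the library labelled WT post-transplant replicate 3, at 2.69, of which 0.154 was on protein-coding transcripts. The genotypes overlapped for Socs7 in summed TPM and over protein-coding transcripts.

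Post-transplant, the summed levels of some cell type marker lists, namely T cells, CD4 and helper T cells, B cells, neutrophils and dendritic cells, did not overlap between the genotypes. In CPM of library totals, 5 T cell markers summed to 2368 to 2613 in WT and 3216 to 4248 in TCF-1 cKO. The 4 neutrophil markers summed to 26.2 to 73.2 in WT and 85.6 to 320.2 in TCF-1 cKO, and the 6 B cell markers to 398 to 467 and 228 to 357. CD4 and helper T cell markers summed to 9.88 to 50.3 in WT and 3.84 to 8.99 in TCF-1 cKO, and dendritic cell markers to 4.24 to 6.68 and 8.32 to 14.4. No listed marker of these types was at 0 in all libraries of a group, and their part in the lower Cish, Socs1 and Socs3 values was not tested.

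Cish, Socs1 and Socs3 are also the most GC-rich members, at 56.1%, 58.5% and 59.0% GC in their transcripts. This puts them at percentiles 85.6, 94.3 and 95.3 of the genes above a cut on mean TPM, a set other than the genes tested. Post-transplant the difference between genotypes moved with GC content across all genes. The median log2 fold change was 0.65 in the decile of genes with the lowest GC content and −2.59 in the decile with the highest, where 54.6% of genes were called lower. Socs3, at −2.78, lay close to the median of its decile, and Cish and Socs1 lay below the range from the 25th to the 75th percentile of the deciles nearest to them (−2.95 and −3.35 at its lower end). Socs4, the member with the lowest GC content (38.6%), had a value of 0.21.

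**Figure D2:**
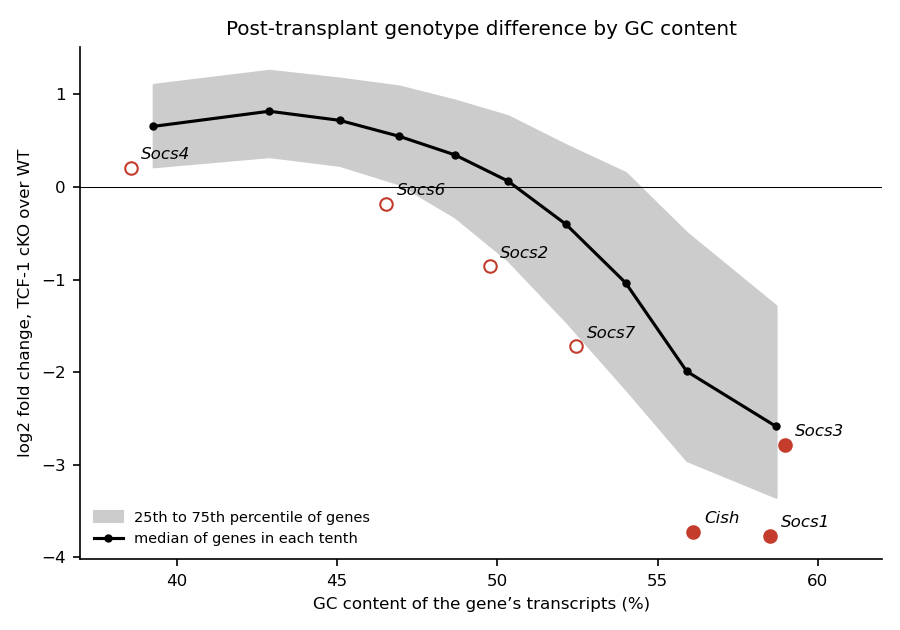
Log2 fold change of TCF-1 cKO over WT post-transplant against GC content (%) for 7 SOCS genes, filled where the adjusted p was below 0.1. The line is the median and the band the 25th to 75th percentile of genes in each decile of GC content: the median falls from 0.65 in the lowest decile to −2.59 in the highest, with Cish and Socs1 under the band.

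The trend was not shared evenly by the WT libraries. Relative to the mean of the 6 post-transplant libraries, genes of the highest GC decile had a median deviation of 1.13 and 1.99 (log2) in WT replicates 1 and 2. It was −0.05 in the library labelled WT replicate 3 and −1.02 to −0.73 in the TCF-1 cKO libraries. When each library's trend on GC content and length was subtracted, 0 of 7 members passed by edgeR, where 0.0187% of genes passed. An unadjusted p under 0.05 was held by 2 members (Cish and Socs1) and by 3311 of the 16026 genes tested. Cish then had a log2 fold change of −1.84 (SE 0.49, edgeR adjusted p = 0.111) and Socs1 of −1.43 (SE 0.45, adjusted p = 0.139). Socs3 had −0.50 (SE 0.44, adjusted p = 0.559). With the offset and without the library labelled WT post-transplant replicate 3, Cish (−2.35, adjusted p = 0.0263) and Socs1 (−1.89, adjusted p = 0.0491) passed and Socs3 (−0.89, adjusted p = 0.264) did not, by the same test, where 17.9% of genes passed, against 0.0187% with the offset alone. The offset fits were chosen with the trend known.

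**Figure D3:**
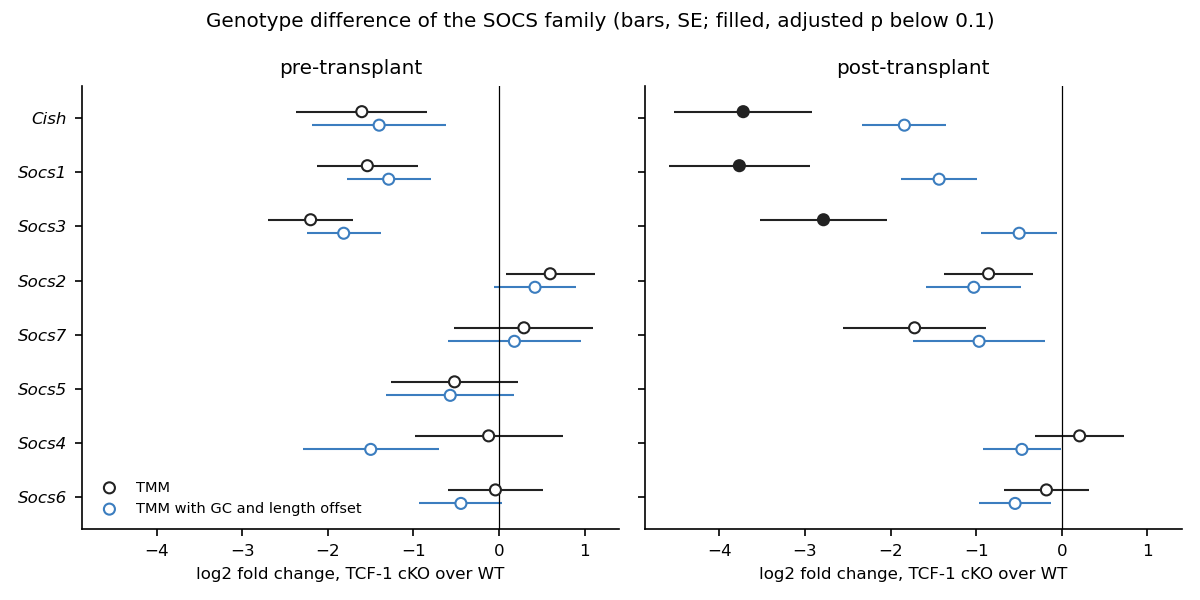
Log2 fold change (TCF-1 cKO over WT, ± SE) of each SOCS gene pre- and post-transplant, with TMM scaling (black) and with a GC content and length offset in addition (blue), filled where the adjusted p was below 0.1. Post-transplant, Cish moves from −3.72 to −1.84 and Socs3 from −2.78 to −0.50. No value is filled pre-transplant, and Socs5 was not tested post-transplant.

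Before transplant the same 3 genes had the lowest log2 fold changes, and none passed. Socs3 was at 32.0, 63.2 and 52.0 normalized CPM in WT and at 10.2, 6.08 and 11.6 in TCF-1 cKO, without overlap. Its log2 fold change was −2.20 (SE 0.49, edgeR adjusted p = 0.180; unadjusted p = 0.000687). Socs1 was at 17.9, 26.4 and 22.3 in WT and at 3.34, 5.21 and 11.9 in TCF-1 cKO, with a log2 fold change of −1.54 (SE 0.59, edgeR adjusted p = 0.238). Its groups did not overlap, and TCF-1 cKO replicate 3 was the closest to WT.

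Cish was at 16.9, 6.22 and 15.3 normalized CPM in WT and at 1.49, 6.08 and 2.92 in TCF-1 cKO pre-transplant cells. The groups were separate by a narrow gap between WT replicate 2 and TCF-1 cKO replicate 2, and the log2 fold change was −1.60 (SE 0.76, edgeR adjusted p = 0.289). Socs2, the other STAT5-pathway inhibitor, was at 17.0, 13.9 and 8.93 in WT and at 18.7, 16.8 and 15.5 in TCF-1 cKO. These overlapped, with a log2 fold change of 0.60 (SE 0.52, edgeR adjusted p = 0.524). Socs4, Socs5, Socs6 and Socs7 had values between −0.52 and 0.29 with overlapping groups. Socs4 was spread widely within WT, at 26.4, 5.41 and 1.92.

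Pre-transplant, 0 of 8 members passed by edgeR, where 0.0373% of the 18757 genes tested passed. The median log2 fold change was −0.32 over the 8 members and 0.05 over all genes. Unadjusted p-values were under 0.05 for 2 members, Socs1 and Socs3, and for 3322 genes in all. DESeq2's Wald test called 1 member, Socs3 (−2.27, adjusted p = 0.00307), where it called 7.76% of genes. Without overlap were 3 of 8, all lower, where 30.3% of genes tested did not overlap and 14.2% were lower without overlap. With CPM of library totals or summed TPM it was again 3, of which 2 were lower and Socs2 was higher, where 27.9% and 27.2% of genes did not overlap. The summed level of 5 T cell markers (all 5 detected) was 841 to 1044 CPM of library totals in WT and 432 to 552 in TCF-1 cKO pre-transplant, and its part in the lower Socs1, Socs3 and Cish values was not tested. Without TCF-1 cKO pre-transplant replicate 3, Socs1 (−2.20, adjusted p = 0.0594) and Socs3 (−2.43, adjusted p = 0.0296) passed by edgeR, where 12.7% of genes passed.

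The pre-transplant difference also moved with GC content, from a median log2 fold change of 1.42 in the lowest decile to −0.55 in the highest. With the GC content and length offset, Socs3 had −1.81 (SE 0.43, edgeR adjusted p = 0.143), Socs1 −1.29 (SE 0.49, adjusted p = 0.192) and Cish −1.40 (SE 0.78, adjusted p = 0.301). None of the 8 members passed, where 0.0427% of genes did. An unadjusted p under 0.05 was held by 2 members and by 3982 of the 18757 genes tested.

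The change across transplant was compared within each genotype, and here the scaling decides the level. TMM factors set over all 12 libraries were 1.23 to 2.31 in the pre-transplant and 0.456 to 0.695 in the post-transplant libraries. The median log2 fold change of all genes, post- over pre-transplant, was −0.30 with TMM and −1.25 with library totals in WT, and −0.29 and −1.89 in TCF-1 cKO. Changes are therefore given as fitted and also relative to that median. Among the genes that passed, 1628 rose and 1734 fell in WT with TMM, and 717 and 4136 with library totals. In TCF-1 cKO they were 3660 and 3114, and 1660 and 10608. The B cell markers given above differ between the stages in both genotypes, and their part in these changes was not tested.

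In WT, Cish was the 1 member of 8 that passed, where 20.0% of the 16790 genes tested passed. It rose from 16.9, 6.22 and 15.3 to 81.4, 121 and 19.8 normalized CPM, without overlap. The log2 fold change was 2.31 (SE 0.75, edgeR adjusted p = 0.0679), or 2.61 above the median of all genes. With library totals Cish did not pass (1.26, edgeR adjusted p = 0.206, or 2.51 above the median), and its libraries of the 2 stages then overlapped. Cish also lost its call without any 1 of the WT pre-transplant libraries and without WT post-transplant replicate 1, where Socs5 passed in its place (−4.31, edgeR adjusted p = 0.0785) and 10.9% of genes passed. Without the library labelled WT post-transplant replicate 3, Cish and Socs1 passed, Socs1 with a log2 fold change of 1.85 (edgeR adjusted p = 0.0470), where 22.2% of genes passed, and Socs1 did not pass with it (1.18, adjusted p = 0.310).

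With library totals 2 other members passed in WT, both lower, where 28.9% of genes passed: Socs2 (−2.22, edgeR adjusted p = 0.0496) and Socs5 (−3.74, adjusted p = 0.0419). Relative to the median of all genes these were −0.97 and −2.49. Socs3 had a TMM log2 fold change of 0.14 and its stages overlapped. Of the 8 members 1 did not overlap between stages, Cish, where 32.2% of genes tested did not overlap. It was 3 with CPM of library totals and with TPM, where 44.5% and 49.2% of genes did not. These were Socs2, Socs5 and Socs6, all lower, and Cish overlapped in both units.

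In TCF-1 cKO, Socs2 was the 1 member of 8 that passed, where 36.5% of the 18535 genes tested passed. Socs2 passed with each of the 6 libraries left out. It fell from 18.7, 16.8 and 15.5 to 5.08, 3.37 and 5.38 normalized CPM, without overlap. Its log2 fold change was −1.89 (SE 0.46, edgeR adjusted p = 0.0133), or −1.60 relative to the median, and it stayed lower with the GC content and length offset (−2.34, adjusted p = 0.00268) and with library totals (−3.52, adjusted p = 0.000422). The offset also called Socs4 higher (1.69, edgeR adjusted p = 0.00955), where 39.1% of genes passed, against 0.95 (adjusted p = 0.195) without it. Socs4 was at 11.4, 9.65 and 4.41 normalized CPM before and 18.3, 11.9 and 19.4 after transplant. Its direction depended on the scaling. The mean fell from 17.9 to 10.8 in CPM of library totals and from 2.35 to 1.11 in TPM, with overlapping stages in both.

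Cish, the member that passed in WT, had a log2 fold change of 1.03 (SE 0.69, edgeR adjusted p = 0.298) in TCF-1 cKO, and its stages overlapped. Socs5 was at 4.04, 10.7 and 7.74 normalized CPM before and 0.613, 0.0785 and 3.71 after transplant, without overlap, and did not pass (−2.33, SE 1.05, edgeR adjusted p = 0.128). It passed without TCF-1 cKO post-transplant replicate 3, its highest library at that stage (−4.38, edgeR adjusted p = 0.0210), where 28.5% of genes passed. Without overlap in normalized CPM were 3 of 8 (Socs2 and Socs5 lower, Socs4 higher), where 46.9% of genes tested did not overlap. It was 6 with CPM of library totals and with TPM, where 64.6% and 67.2% of genes did not. These were all lower, and Socs4 was not among them. With library totals 6 members passed, all lower, where 66.2% of genes passed, and the median of all genes was then −1.89. Socs3 was among the 6 (−1.28), yet lay 0.61 above that median, as it lay 0.56 above the median with TMM (0.27, not called).

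**Figure D4:**
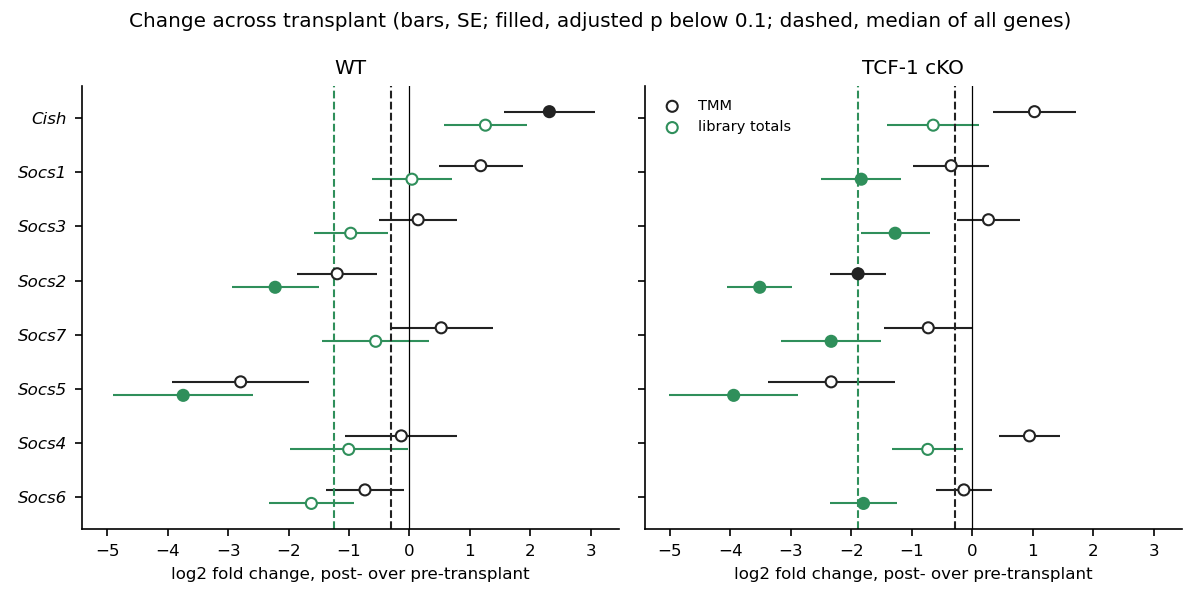
Log2 fold change (post- over pre-transplant, ± SE) of each SOCS gene in WT and TCF-1 cKO with TMM scaling (black) and library totals (green), filled where the adjusted p was below 0.1. Dashed lines are the medians of all genes under each scaling, at −0.30 and −1.25 in WT and −0.29 and −1.89 in TCF-1 cKO. Cish lies above both medians in WT and Socs2 below both in TCF-1 cKO.

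An interaction term in a fit of all 12 libraries asked whether the genotype difference changed with stage. By edgeR 0 of 8 members passed, where 0.00465% of 21526 genes tested passed. An unadjusted p under 0.05 was held by 0 members and by 3377 genes. DESeq2's Wald test also called 0 members, where it called 7.96% of genes. By that test 1 member was under an unadjusted 0.05, as were 4304 genes. Socs1 had the lowest p, with a log2 value of −1.78 (SE 0.94, edgeR adjusted p = 0.358), and Cish had −1.49 (SE 0.99, adjusted p = 0.464). Socs3 had −0.11 (SE 0.83, adjusted p = 0.965). Hence the post-transplant calls of Cish, Socs1 and Socs3 are not shown to differ from the pre-transplant values.

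The summed values hide a split over transcripts, which Kallisto estimates by sharing out reads. Socs2 (chr10:95385362-95417180, GRCm38, minus strand) was highest in TCF-1 cKO pre-transplant libraries by summed TPM. Of its estimated counts there, 15.5%, 32.4% and 19.5% lay on protein-coding transcripts, against 49.1%, 27.9% and 78.9% in WT pre-transplant. Over protein-coding transcripts Socs2 was at 2.78, 7.04 and 6.18 TPM in TCF-1 cKO and at 6.65, 3.75 and 7.87 in WT, and the groups overlapped. The remainder in TCF-1 cKO lay largely on 1 processed transcript of 893 bases (31.1% to 50.8% of the counts) and on a retained intron form of 3285 bases (18.6% to 50.9%). In WT these held 10.3% to 31.8% and 2.37% to 39.1%. A nonsense-mediated decay transcript of 4242 bases held 37.9% of the counts in WT pre-transplant replicate 1, 0.434% to 0.989% in the other two WT libraries and 1.02% to 1.63% in TCF-1 cKO. The genotypes thus did not overlap in summed TPM and overlapped in protein-coding TPM, and Kallisto's division between overlapping transcripts is uncertain.

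Cish (chr9:107296026-107302784, plus strand) was also split. Protein-coding transcripts held 99.2%, 97.1% and 92.5% of its counts in WT post-transplant and 86.7%, 29.0% and 52.7% in TCF-1 cKO post-transplant. Pre-transplant the shares were 94.7%, 71.5% and 42.3% in WT and 15.3%, 46.7% and 33.1% in TCF-1 cKO. The remainder was almost all on a longer processed transcript of 4697 bases. Over protein-coding transcripts Cish was at 16.7, 17.9 and 3.25 TPM in WT post-transplant and at 1.65, 0.235 and 0.524 in TCF-1 cKO, so the groups stayed apart. The pseudogene Gm17040 and the antisense gene Gm17041 overlap Cish on the other strand, and as no stranded kit is named their reads cannot be told apart from those of Cish.

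Socs1 (chr16:10782240-10785536, minus strand) and Socs3 (chr11:117966079-117970047, minus strand) did not depend on this split. All counts of Socs1, and at least 97.4% of those of Socs3 in every library, were on protein-coding transcripts. Socs4 and Socs5 were likewise protein-coding for at least 93.7% of counts in every library. Socs6 held 58.0% to 93.8% and Socs7 59.9% to 100% of counts on such transcripts.

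**Figure D5:**
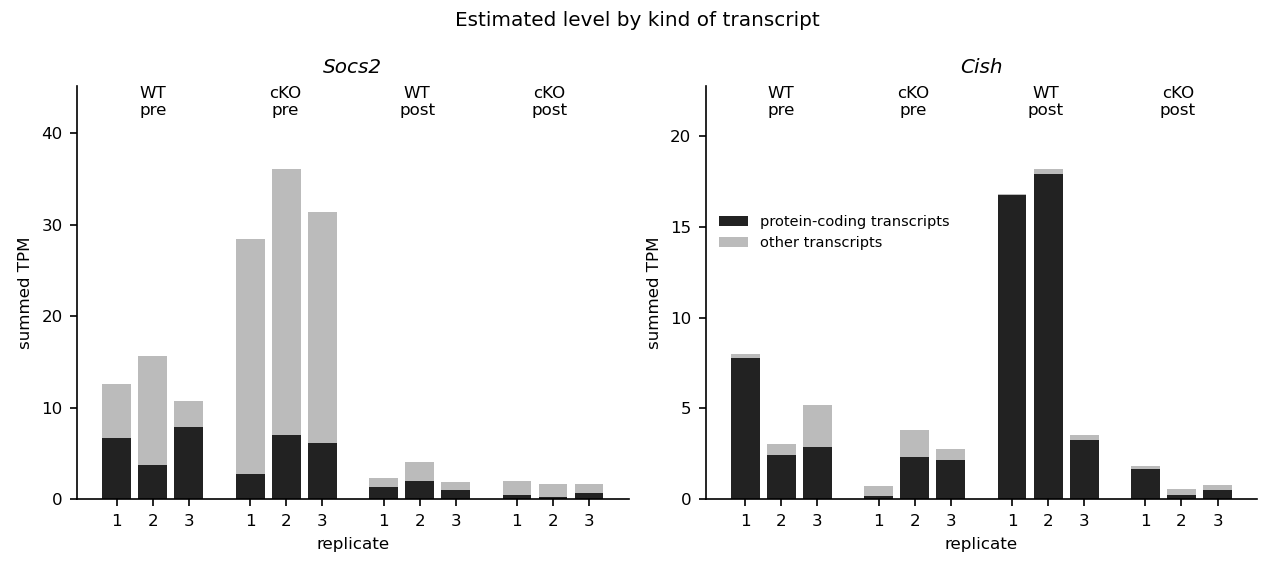
Summed TPM of Socs2 and Cish in each library, divided into protein-coding transcripts (black) and all other transcripts (grey). Socs2 reaches 28.4 to 36.1 TPM in TCF-1 cKO pre-transplant, of which 2.78 to 7.04 TPM is protein-coding, while Cish in WT post-transplant is nearly all protein-coding.

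The rest of the pathway was described by 6 gene lists, whose post-transplant counts stand beside the 15.4% of all genes called lower and 2.51% called higher. Post-transplant, 7 of 11 JAKs and STATs were lower in TCF-1 cKO (median log2 fold change −2.21, against 0.15 over all genes), among them Stat5b (−3.44), Jak3, the kinase of the common gamma chain (−4.40), and Stat3 (−2.21), each with an edgeR adjusted p of 0.0448. Of 18 cytokine receptors 7 were lower (median −0.50), among them Il2rb (−3.53), Il12rb1 (−3.33) and Il4ra (−3.19). Of 14 other STAT target genes 7 were lower (median −1.49), led by the kinase genes Pim2 (−3.42) and Pim3 (−3.07) and by Myc (−3.01). All calls in these 3 lists were lower, as were those of the SOCS genes. The study listed Stat5b, Jak3, Stat3 and Il2rb as lower from the same samples, so their direction is not independent evidence.

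Of 13 other inhibitors of JAK-STAT signaling 5 were lower (median −1.10), led by Pias4 (−3.85), Ptpn1 (−2.55) and Ptpn6 (−2.24), and Ptprc was higher (1.38, edgeR adjusted p = 0.0991). Of 8 cytokine ligands tested 1 was higher, Ifng (1.70, edgeR adjusted p = 0.0773), with a median of 0.98. Ifng and Ptprc were also listed as higher by the study from the same samples. None of the 7 genes listed for elongin and cullin ubiquitin ligases passed (median 0.63). Under the offset for GC content and length, 0 of the 71 listed genes tested passed post-transplant by edgeR, where 0.0187% of all genes passed. An unadjusted p under 0.05 was held by 29 of them and by 3311 of all 16026 genes tested. Pre-transplant 0 of 71 passed by edgeR, where 0.0373% of all genes did. There 13 had an unadjusted p under 0.05, as did 3322 of all 18757. DESeq2's Wald test called 5 of the 71, all lower, where it called 7.76% of all genes and 2.86% as lower. In the interaction 0 of 73 passed by edgeR, where 0.00465% of all genes did. There 16 had an unadjusted p under 0.05, as did 3377 of all 21526. DESeq2's Wald test called 12 of the 73, where it called 7.96% of all genes. Of the 12, 10 had a positive interaction value and 2 a negative one, where 4.59% and 3.37% of all genes did.

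Across transplant in WT, 4 of the 7 listed ligase genes rose, where 9.70% of all genes passed as higher. Among them were Elob (2.48, edgeR adjusted p = 0.00894) and Rbx1 (2.16, adjusted p = 0.0145). The median of the list was 1.69, against −0.30 over all genes. In TCF-1 cKO 5 of 7 rose, where 19.7% of all genes did, among them Rbx1 (4.05) and Rnf7 (3.20), with a median of 2.96 against −0.29. With library totals 2 rose and 1 fell in WT, where 4.27% of all genes rose and 24.6% fell. In TCF-1 cKO 4 rose with library totals, where 8.96% of all genes did. The median of the 8 SOCS genes was 0.00 in WT and −0.24 in TCF-1 cKO.

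Calls in the other 5 lists are given with TMM first. With TMM, 9.70% of all genes passed as higher and 10.3% as lower in WT, and 19.7% and 16.8% in TCF-1 cKO. In WT 1 of 11 JAKs and STATs rose (Jak3, 2.32) and 1 fell (Stat2, −2.76), 2 of 18 receptors rose (Il2rb, 3.49, and Il12rb1, 3.78) and 3 fell, 3 of 8 ligands rose (Csf2, Ifng and Il10, at 5.06, 3.70 and 5.39), and 3 of 13 other inhibitors and 3 of 14 other STAT targets fell. In TCF-1 cKO 1 JAK or STAT rose (Stat4, 3.19) and 3 fell, 6 receptors rose and 5 fell, 4 of 10 ligands rose and 1 fell, 3 other inhibitors rose and 4 fell, and 2 other STAT targets rose and 6 fell. Medians lay between −0.70 and 0.90 in WT and between −0.59 and 0.93 in TCF-1 cKO. With library totals the calls were mostly lower outside the ligands. In WT 5 JAKs and STATs fell, 2 receptors rose and 8 fell, 3 ligands rose and 1 fell, and 6 other inhibitors and 6 other STAT targets fell. In TCF-1 cKO 1 JAK or STAT rose and 8 fell, 1 receptor rose and 11 fell, 4 ligands rose and 3 fell, 1 other inhibitor rose and 9 fell, and 9 other STAT targets fell. The shares of all genes called with library totals are those given above, 28.9% and 66.2%. By direction, 4.27% of all genes passed as higher and 24.6% as lower in WT, and 8.96% and 57.2% in TCF-1 cKO.

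Across the 12 libraries, the levels of the feedback inhibitors were most alike between Socs1 and Socs3 (Pearson r = 0.93 of log2 normalized CPM), Cish and Socs1 (r = 0.83) and Cish and Socs3 (r = 0.72). Socs2 was most like Socs5 (r = 0.70). The genes most like Cish were Rnf166 (r = 0.98), Smarcd2 (r = 0.98) and Nudt3 (r = 0.97), those most like Socs1 were Exoc7, Ap1m1 and Cnp (r = 0.98 each), and those most like Socs3 were Traf1 (r = 0.97), Trmt2a (r = 0.95) and 0610012G03Rik (r = 0.95). All 9 have a GC content between 53.8% and 57.8%. For Socs2 they were Supt7l (r = 0.94), Peg12 (r = 0.93) and Itfg2 (r = 0.93). Socs4 was most like Lcorl (r = 0.91), Socs5 like Sik1 (r = 0.92), Socs6 like Ubr3 (r = 0.95) and Socs7 like Tmem38a (r = 0.81). These are descriptions over 12 libraries that fall into 4 groups.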

How the data were processed

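RNA-seq data from 4 groups of 3 libraries, taken from their titles, were analysed. Reads from SMART-Seq HT cDNA were pseudoaligned by the authors with kallisto (0.46.2 in the submitters' processing notes, which name mm9), and the authors deposited an estimated count and a TPM value for each of 117497 transcripts. Both were deposited per transcript; TPM is scaled for length and to 1 total per library. Transcripts were joined by ID to GENCODE M21 (GRCm38), which may not be the release used: 116374 matched 35855 genes. Estimated counts were summed per gene and rounded.

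edgeR 4.0.16 (TMM, filterByExpr, quasi-likelihood) was run over all genes, with each comparison's 6 libraries or, for the interaction, all 12, and Benjamini-Hochberg adjustment at 0.1. Each fit set TMM factors on its own libraries, whereas normalized CPM used factors set over all 12. Ratios of normalized CPM can therefore differ from fitted fold changes. SE is the log2 fold change over the root of F. The offset subtracted loess trends (span 0.4, degree 2) on GC content and log length. A floor of 3 counts is between 0.0922 and 0.667 CPM and covers counting error only. The edgeR script was tested on simulated data that held no GC trend and no wrong label. That test therefore cannot show how the fits behave under either. The alternatives were limma-voom (limma 3.58.1), DESeq2 1.42.0, other filters, scalings and an FDR of 0.05, and each library left out. Likeness used log2(CPM + 0.5). Named were all members, up to 3 genes with the smallest p in each direction of each list, and the 3 protein-coding genes most like a member. Members and lists were chosen with earlier results of these data known.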

Additional observations from a re-analysis of the deposited data

How the results depend on the processing

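The number of members called depended on the fit, and the share of all genes called in the same fit is given in brackets. Pre-transplant it was 0 (0.0373%), 1 with DESeq2's Wald test (7.76%) and with no filter (1.93%), and 0 to 2 with 1 library left out (0% to 12.7%). Post-transplant it was 3 (17.9%), and 0 with the GC content and length offset, without (0.0187%) or with the replicate block (0.0125%). It was 2 at an FDR of 0.05 (8.71%), where Socs3 was lost, 4 with counts scaled from TPM (16.4%), and 0 to 3 with 1 library left out (0% to 29.3%). In WT across transplant it was 1 (20.0%). It was 0 with limma-voom (20.0%), at an FDR of 0.05 (13.4%) and with the replicate block (18.4%). It was 2 with DESeq2's Wald test (27.7%), no filter (12.8%), library totals (28.9%) and the offset with the block (20.1%). It was 0 to 2 with 1 library left out (8.37% to 22.2%). In TCF-1 cKO it was 1 (36.5%). It was 2 with limma-voom (39.9%), DESeq2's Wald test (42.5%), no filter (20.6%), counts scaled from TPM (34.5%) and the replicate block (29.6%). It was also 2 with the offset, with (33.4%) or without the block (39.1%). It was 6 with library totals (66.2%), and 1 to 2 with 1 library left out (26.5% to 33.2%). Members without overlap between stages were 1 in WT, where 32.2% of genes did not overlap. They were 3 with CPM of library totals and with TPM, all lower and without Cish, where 44.5% and 49.2% of genes did not. In TCF-1 cKO they were 3, where 46.9% did not, and 6 with both, where 64.6% and 67.2% did not. Socs3 in TCF-1 cKO was called lower with library totals (−1.28) and had 0.27 with TMM. Both values lay above the median of all genes, which was −1.89 with library totals and −0.29 with TMM. Socs7 was called lower post-transplant in counts scaled from TPM (−2.62, edgeR adjusted p = 0.0822), although its genotypes overlapped in TPM. The cause of these shifts was not tested, save that an FDR of 0.05 and leaving out a library are stricter or smaller by construction. Counting each member in each alternative fit, values of uncalled members changed sign 12 times pre-transplant, 7 post-transplant, 21 in WT, 8 in TCF-1 cKO and 22 in the interaction, without passing. With CPM or protein-coding TPM in place of TPM, 8 of 16 ranks of the members by level moved in WT and 10 in TCF-1 cKO pre-transplant, and 8 and 11 post-transplant. The interaction called 0 members in every fit tried. Over all genes, calls pre-transplant were 7, and 1455 with DESeq2's Wald test, 619 with no filter and 2739 without TCF-1 cKO replicate 3. Post-transplant they were 2868, and 4525 with DESeq2's Wald test, 1396 at an FDR of 0.05, 3 with the offset, 0 to 2 without any 1 library but the one labelled WT replicate 3, and 5299 without that one. In the interaction they were 1, and 1713 with DESeq2's Wald test, 580 with no filter and 2093 without the library labelled WT post-transplant replicate 3. The library totals and the fits that join the offset with leaving out a library were added after seeing the data.

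Replicate numbers did not pair the samples: same-numbered libraries correlated at 0.0818, 0.0380 and 0.105 between the post-transplant groups and at −0.0232, −0.0683 and −0.141 between the TCF-1 cKO stages. Post-transplant every library correlated best with its own number in the other genotype, a hint from the data and not from the design, and this did not hold pre-transplant or between stages. With the replicate block 3 members were called post-transplant, 0 pre-transplant, 0 in WT and 2 in TCF-1 cKO. The shares of all genes called in these fits were 12.7%, 0%, 18.4% and 29.6%. Socs5 held 1 to 98 counts post-transplant, and at 3 or fewer counts, as in 2 of these libraries, no difference was detectable.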
